A study of Mus musculus with 2 samples.

Results

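Bidirectional promoters are stretches of DNA from which 2 genes are read in opposite directions. Here they were the 715 pairs of autosomal protein-coding genes of mm10 that lie head to head on opposite strands with annotated transcription start sites (TSSs) at most 1 kb apart, among 19666 autosomal protein-coding promoters in all. A first search gave 735 such pairs, of which 20 shared a gene or a window with a closer pair and were left out. Each promoter was a window from 500 bp inside one gene to 500 bp inside the other. They were set beside 17774 single promoters, windows of 500 bp on either side of the TSS of a gene with no other protein-coding start within 2 kb. The study measured chromatin accessibility in single nuclei of hematopoietic stem cells (HSCs) by scATAC-seq, in which a transposase cuts open DNA and each sequenced fragment carries the barcode of its nucleus. HSCs were sorted from bone marrow of C57BL/6 mice as Sca-1+ c-kit+ CD150+ cells without CD34, CD48, Flt3 and lineage markers. The labels also give IL-7-, where the study's methods name an antibody to the IL-7 receptor. Each age gave 1 library, 10 weeks for the young HSCs and 20 months for the aged ones. No genetic change or treatment is given for either. Pooling of mice is stated for the bulk experiments of the study, and how many mice gave each of these libraries is not given in the sources used here.

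In mammals many housekeeping genes share a promoter with a divergent neighbour, often a gene for DNA repair, mitochondria, RNA processing or protein folding. Such promoters usually hold a CpG island, seldom a TATA box, and form 1 stretch free of nucleosomes between the TSSs, where transcription starts outward on both strands. Short fragments come mostly from cuts within such open DNA, and fragments long enough to wrap 1 or more nucleosomes come from its flanks.

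The files held 73711513 read pairs with a barcode and 53786133 unique fragments for young HSCs, and 63744997 and 48333115 for aged HSCs. Of 5028 young and 3694 aged barcodes called as cells by the authors' pipeline, 4887 and 3405 had 3000 to 20000 in-peak fragments and were used, with medians of 9890 and 11020 fragments per cell. The libraries shared 26 cell barcodes. Fragments in peaks were 69.3% of autosomal fragments in young and 67.8% in aged HSCs. Among promoters of the HSC-like markers the median level was 12.4 young and 12.2 aged, while erythroid-like markers had 3.29 and 2.73, T-like ones 1.94 and 2.28, B-like ones 1.5 and 1.69, and those of mature-myeloid-like cells 0.411 and 0.506. These levels are fragments per 1000000 in-peak fragments of the same library (FPM) per kb of window, in peaks called here on both libraries, while the limits on cells used the in-peak counts of the authors. Promoters of Mecom and Ly6a, which belong to the HSC-like list, stood low at 0.235 and 2.12 in the young library, so the label rests on promoters such as Kit (32.5 young, 30.8 aged) and Hlf (31.8 young, 29.8 aged). With 1 library per age no test between ages was possible. Every interval below is a 95% interval that covers counting error or the spread over promoters only, and PCR copies were removed by the authors before counting. Intervals of ratios of fragment ends understate counting error, as given where they stand.

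The DNA between the TSSs is shown for the first pairs, among those with a gap of 60 to 300 bp, by number of fragments (Mob3a and Izumo4, Nfya and Oard1), by highest ratio of aged over young (Stap2 and Mpnd, Ccnt1 and 4930415O20Rik) and by lowest ratio (Tssk3 and Fam229a, and 2 pairs of histone genes). All are on the plus strand of mm10 (GRCm38), 5′ to 3′, and each lies outside the annotated genes of the pair, at chr10:80701978-80702183, chr17:48409907-48410013, chr17:56005585-56005710, chr15:98570924-98571003, chr4:129491023-129491189, chr13:23571221-23571395 and chr13:23574197-23574380 in the order given. Capitals mark matches to the searched motifs on either strand, here the NRF1 motif (GCATGCGC), the TATA box (TATAAA) and the NFY motif (CCAATCA).
Mob3a and Izumo4: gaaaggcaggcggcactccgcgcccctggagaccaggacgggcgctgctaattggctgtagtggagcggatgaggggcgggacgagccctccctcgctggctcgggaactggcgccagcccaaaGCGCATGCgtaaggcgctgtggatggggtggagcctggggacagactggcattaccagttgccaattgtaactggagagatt
Nfya and Oard1: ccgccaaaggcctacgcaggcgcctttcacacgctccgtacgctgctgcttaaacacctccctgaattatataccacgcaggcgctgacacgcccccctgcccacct
Stap2 and Mpnd: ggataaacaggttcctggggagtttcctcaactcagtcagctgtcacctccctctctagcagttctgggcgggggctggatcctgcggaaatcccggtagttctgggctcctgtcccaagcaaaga
Ccnt1 and 4930415O20Rik: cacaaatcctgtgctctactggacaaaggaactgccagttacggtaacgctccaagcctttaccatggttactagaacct
Tssk3 and Fam229a: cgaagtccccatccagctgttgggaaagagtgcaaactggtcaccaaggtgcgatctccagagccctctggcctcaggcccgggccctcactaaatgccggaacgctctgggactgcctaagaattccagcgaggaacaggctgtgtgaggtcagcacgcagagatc
Hist1h2ae and Hist1h2bg: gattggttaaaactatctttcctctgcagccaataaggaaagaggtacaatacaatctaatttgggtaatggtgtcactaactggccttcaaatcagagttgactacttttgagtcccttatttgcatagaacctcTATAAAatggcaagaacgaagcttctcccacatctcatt
Hist1h2bf and Hist1h2ad: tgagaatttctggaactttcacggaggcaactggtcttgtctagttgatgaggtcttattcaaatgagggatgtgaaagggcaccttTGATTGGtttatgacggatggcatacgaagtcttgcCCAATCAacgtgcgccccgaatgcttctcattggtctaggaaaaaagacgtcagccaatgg
The stretch between Mob3a and Izumo4 held 14 CpG and was 64.1% G or C, with 1 NRF1 match. That between Hist1h2ae and Hist1h2bg held 1 CpG at 38.3% G or C, with a TATA match, and that between Hist1h2bf and Hist1h2ad held 7 CpG and a CCAATCA match on each strand.

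The gap between TSSs had a median of 127 bp (quartiles 66 and 239 bp), and ran from 0 bp at Nsa2 and Gfm2 to 987 bp. It was at most 300 bp in 586 pairs and longer in 129. By an observed over expected CpG ratio of at least 0.6 and at least 50% G or C, 600 pairs were CpG-rich, 83.9% of them, against 7298 single promoters or 41.1%. In 300 bp around the middle of the pair, or from 250 bp upstream to 50 bp downstream of a single TSS, the ETS motif CCGGAAGTG was found in 7.83% of pairs and 3.93% of CpG-rich single promoters, with 2.35% over all promoters. YY1 (AAGATGGCG) was found in 5.45%, 2.55% and 1.58% of these sets, NRF1 in 6.85%, 5.95% and 3.31%, and NFY in 15.7%, 9.92% and 8.29%. The GC-box of SP and KLF factors (GGGGCGGGG) was in 20.8% of pairs, 27.1% of CpG-rich single promoters and 14.3% of all. TATAAA was in 4.62% of pairs, 6.13% of CpG-rich and 19% of CpG-poor single promoters, and 13.2% of all. Of the other motifs searched, PU.1 (GAGGAAGT) was in 2.38% of pairs and 2.32% of CpG-rich single promoters, and AP-1 (TGANTCA) in 3.50% and 3.43%. ZNF143 (CTACAATTC) was in 0.699% and 0.480%, CRE (TGACGTCA) in 4.62% and 3.75%, and the E-box TCACGTGA in 2.66% and 1.62%. A window around a pair covers the upstream DNA of both genes, so these shares compare windows of equal length but not of equal make-up.

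Bidirectional promoters were among the open promoters of HSCs at both ages. Their median level was 35.8 FPM per kb in the young library (interval 34.8 to 37.4) and 33.4 in aged HSCs (31.9 to 35.1). CpG-rich single promoters had medians of 28.2 (27.7 to 28.9) and 26.7 (26.2 to 27.3), and CpG-poor ones 0.470 and 0.467. Of the 715 pairs, 690 held at least 200 fragments over both libraries and are the ones whose ratios are described. Among the 25 below that minimum were 22 with a CpG-poor window, such as Il11 and Tmem190 with 18 young and 20 aged fragments, and the near-identical histone gene pairs Hist1h2bq and Hist1h2ao and Hist1h2ap and Hist1h2br with none in either library.

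Scaled to in-peak fragments, the aged library had slightly fewer fragments at most of these promoters. Over all 715 pairs, the windows held 309.9 fragments per 10000 in-peak fragments of the library in young and 290.5 in aged HSCs. The median log2 ratio of aged over young was -0.091 (-0.098 to -0.085), with the middle 50% of pairs between -0.14 and -0.046. Of the 690 pairs, 74 had a ratio above 0, or 10.7%, where 32.3% of all promoters did. The size depends on the scaling. With a TMM factor over promoters, which takes the typical promoter as unchanged, the median was -0.039 (-0.047 to -0.034), and 28.6% of pairs and 45.5% of all promoters were above 0. At least 1.3-fold higher in the aged library were 4 pairs, 0.580% of those counted, where 5.50% of all promoters were, and 0 pairs were at least 1.3-fold lower, where 1.33% of all promoters were. These small counts move with the counting: thinning each cell to 5000 fragments gave 1 higher and 7 lower, and no minimum on fragments gave 12 and 6.

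The pairs differed from single promoters more in spread than in median. CpG-rich single promoters had a median of -0.077 (-0.080 to -0.074), those with a divergent noncoding gene starting within 1 kb had -0.083 (-0.093 to -0.068), and CpG-poor ones had -0.0050 (-0.012 to 0.0054). The standard deviation (SD) of the log2 ratio over promoters was 0.094 for the pairs and 0.20 for CpG-rich single promoters. Counting error alone would give 0.066 and 0.086, which leaves 0.067 and 0.18 beyond it. For 413 pairs of genes whose 5′ ends overlap in the annotation, which are no members, the SD was 0.14, with 0.13 beyond counting error. Among the 597 CpG-rich pairs 0 were at least 1.3-fold higher, and all 4 that were came from the 93 CpG-poor pairs (4.30%). Of single promoters, 4.07% of the CpG-rich and 10.4% of the CpG-poor ones were. Calls were thus more frequent in CpG-poor windows among single promoters too.

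**Figure D1:**
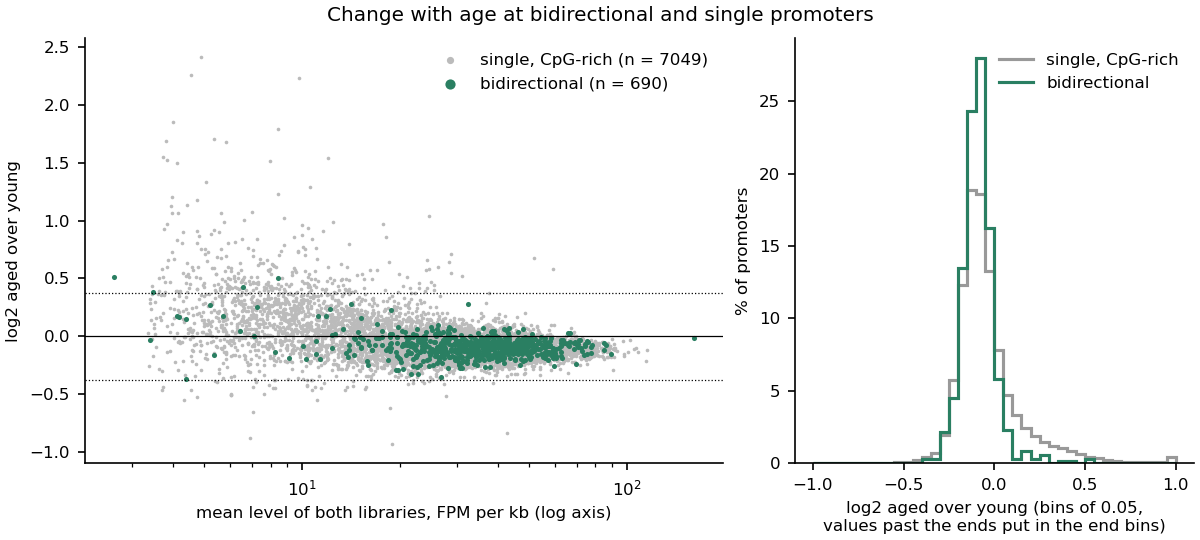
Left, log2 ratio of aged over young (vertical) against mean level (FPM per kb, log axis), 1 dot per promoter with at least 200 fragments; dotted lines mark 1.3-fold. Right, the share of promoters in bins of 0.05. Pairs form a narrow band around -0.091, and only 4 pass the upper line, while CpG-rich single promoters have a long tail above 0 at low levels.

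The tail above 0 was a feature of low levels in both kinds of promoter. The pairs were cut into 4 level classes of equal size, and CpG-rich single promoters of the same range of levels were taken beside each. In the lowest class (2.63 to 26.2 FPM per kb) 24.9% of 173 pairs and 47.7% of 3209 single promoters had a ratio above 0, though the single ones lay lower within that range (median level 15.7 against 20.6). In the second class the shares were 8.14% and 15.4%, in the third 6.98% and 11.2% and in the highest 2.89% and 4.98%. In the lowest class the medians of the log2 ratio lay apart, at -0.071 (-0.088 to -0.052) for pairs and -0.010 (-0.019 to -0.0024) for single promoters. Medians of the log2 ratio in the upper classes were close, at -0.11 for pairs and -0.089 for single promoters in the second, -0.096 and -0.096 in the third and -0.087 and -0.11 in the highest. The SD was smaller for the pairs in each class, at 0.14 against 0.26, 0.081 against 0.097, 0.065 against 0.087 and 0.057 against 0.070. Counting error alone would give 0.088 against 0.11, 0.064 against 0.068, 0.056 against 0.060 and 0.047 against 0.050. In the upper classes much of the SD of the pairs was thus counting error. The gap between the TSSs went with little difference in ratio, with medians of -0.089 up to 100 bp, -0.098 between 100 and 300 bp and -0.079 beyond.

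The difference between ages was not the same for each fragment length. For fragments under 150 bp the median log2 ratio of the pairs was -0.15 (-0.16 to -0.15), with 35 of 690 above 0. For fragments of 150 to 300 bp, the length of 1 nucleosome, it was 0.0059 (-0.0070 to 0.016), with 360 above 0. For those over 300 bp it was 0.16 (0.13 to 0.17), with 495 above 0. Of 10425 single promoters 2294, 6368 and 8020 were above 0 in these classes, and of the 7049 CpG-rich ones 1245, 3979 and 5242. The short class thus made up 69.5% of fragments at the pairs in the young library (69.4 to 69.6) and 66.8% in aged HSCs (66.7 to 66.9), a difference of -2.66 percentage points.

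The same shift was present in the whole libraries. The share of short fragments went from 69.0% to 64.9% of all in-peak fragments, -4.10 points, and by -2.91 points at CpG-rich and -4.62 at CpG-poor single promoters. Of the 657 pairs with at least 1000 fragments, 591 had a lower short share in the aged library, or 90.0%, where 89.8% of all promoters with as many fragments did. The difference was smaller at more open pairs, at -4.01 points in the lowest level class, -2.96 and -2.59 in the next ones and -2.09 in the highest. CpG-rich single promoters of the same levels gave -3.99, -3.15, -2.48 and -1.84. Beside histone genes and Wrap53 and Trp53, described further on, the largest decreases were at Sgsh, a lysosomal sulfatase, and Slc26a11 (55.2% young, 44.8% aged) and at Ifit1bl2 and Ifit1, the latter an interferon-induced gene (66.1% and 56.0%). The largest increases were smaller and led by Rnf166 and Ctu2, from 72.4% to 76.0%, and included Iqcg and Rpl35a, 1110059G10Rik and Kif15 and Gm17657 and Tbc1d22b. When each class was scaled to the in-peak fragments of its own length, the medians of the pairs were -0.066, -0.13 and -0.18 for short, 1-nucleosome and longer fragments. The sign for longer fragments therefore turns with the scaling. Length distributions of a library also depend on its transposition and amplification, and that part cannot be told apart from age with 1 library each.

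**Figure D2:**
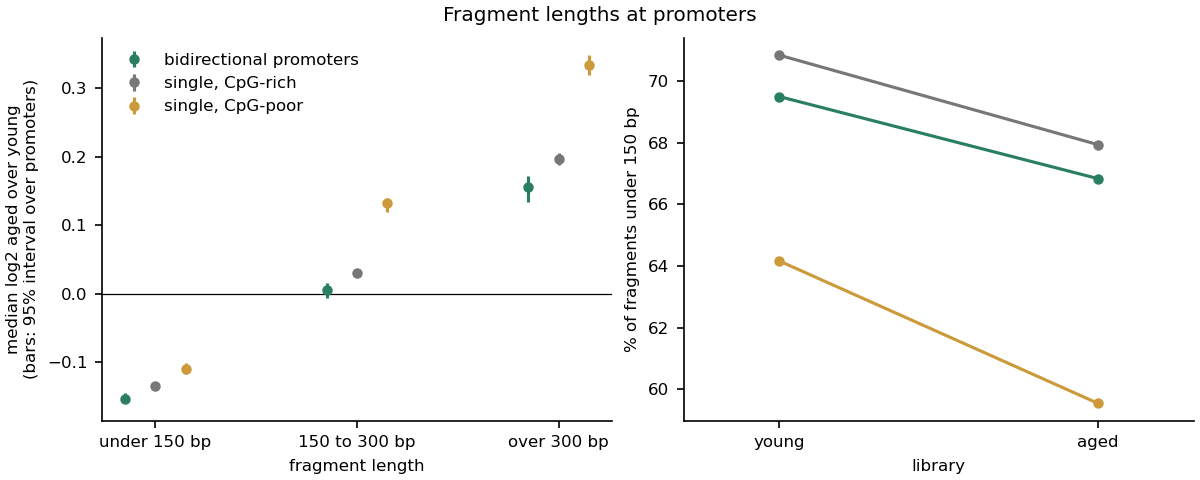
Left, median log2 ratio of aged over young by fragment length class, with 95% intervals over promoters, for bidirectional, CpG-rich single and CpG-poor single promoters. Right, share of fragments under 150 bp in each library (axis not from 0): 69.5% to 66.8% at the pairs.

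The layout of fragments along the promoter differed with the distance between the TSSs. With TSSs up to 100 bp apart, cut sites were highest at the middle of the pair, at 186 per 1000000 in-peak fragments per kb in young and 169 in aged HSCs. Lower maxima of cuts stood near 270 bp on either side. Midpoints of fragments of 150 to 300 bp peaked 150 bp to either side of the middle, at 21.1 and 21.5 young and 20.5 and 20.8 aged, and fell to 6.50 and 6.75 between. With TSSs over 100 and up to 300 bp apart the flanking maxima lay 210 bp to either side, at 17.2 and 17.4 young, and a small maximum of 12.9 stood at the middle. With TSSs over 300 bp apart the order was turned. Midpoints of this length were most frequent within 10 bp of the middle, at 17.8 young and 16.8 aged, and cut sites peaked 190 bp to the left and 170 bp to the right in young and 170 bp to either side in aged HSCs. Length alone does not show whether a fragment held a nucleosome. The positions of the maxima of 150 to 300 bp fragments were the same at both ages in each gap class.

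**Figure D3:**
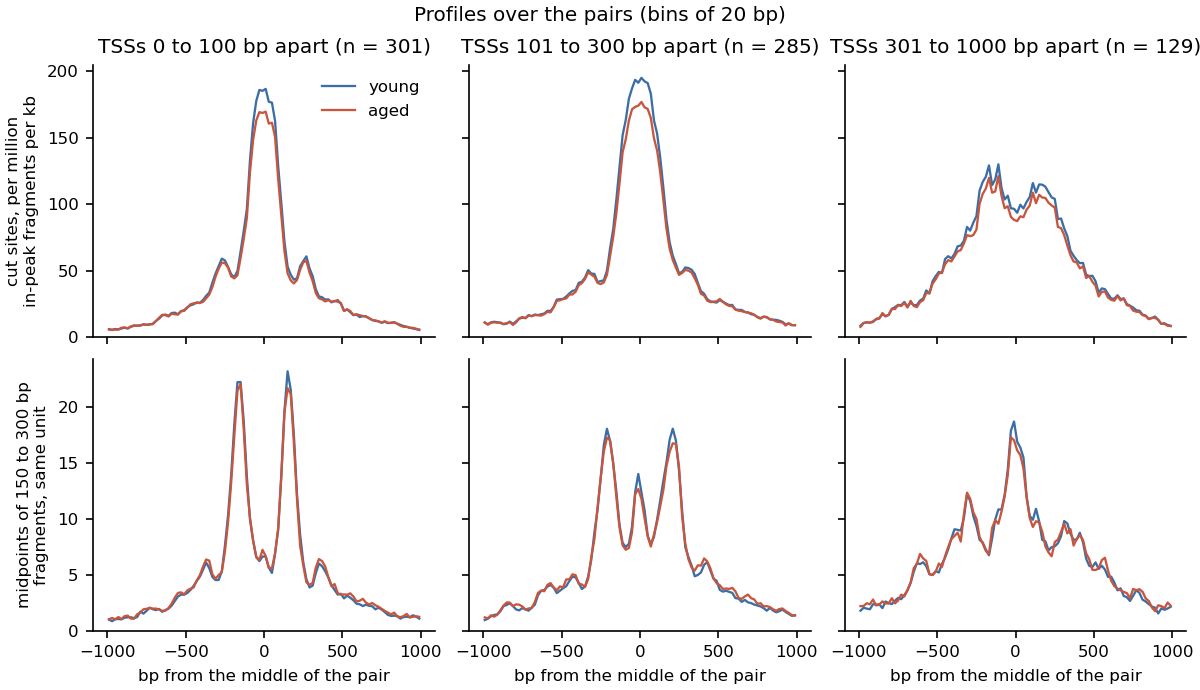
Cut sites (top) and midpoints of fragments of 150 to 300 bp (bottom) around the middle of the pair in the 3 gap classes, per 1000000 in-peak fragments per kb and per pair. The aged curves lie below the young ones over the maxima of cuts, 186 against 169 at the middle in the first class, and near them in the flanks.

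Cuts between the TSSs were denser than cuts inside the genes, and their difference with age was larger. Per kb, the stretch between held 2.60 times the density of the 500 bp inside the genes in young and 2.52 times in aged HSCs. The log2 ratio of aged over young was -0.13 (-0.13 to -0.12) between the TSSs and -0.088 (-0.091 to -0.084) inside the genes. It was larger between than inside in each gap class. The values were -0.14 against -0.091 up to 100 bp, -0.14 against -0.086 between 100 and 300 bp and -0.11 against -0.080 beyond. CpG-rich single promoters also had a larger relative decrease upstream of the TSS than inside the gene, so this was not particular to pairs. On the scale of the cut profiles above, their 500 bp upstream held 64.3 in young and 60.3 in aged HSCs. Their 500 bp inside the gene held 49.9 and 47.2, and their maximum of cuts was 135 and 125. Fragments that reached across both TSSs made up 9.96% of fragments at pairs up to 100 bp apart in the young library (9.86 to 10.1) and 10.1% in aged HSCs (10.0 to 10.3). Between 100 and 300 bp they were 1.08% and 1.12%, and beyond that 0.0659% and 0.0892%, from 155 and 149 fragments.

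The side with more ends was mostly the same at both ages. The ends inside one gene and those inside the other differed by a median of 0.71 on the log2 scale in young and 0.70 in aged HSCs, and by over 2-fold in 234 and 219 of 690 pairs. Of 664 pairs with at least 200 ends on each side, 631 had more ends on the same side in both libraries. The balance of a pair is the log2 ratio of ends inside the plus-strand gene over ends inside the minus-strand gene, and its change (aged minus young) had a median of 0.00039 (-0.018 to 0.014) and lay between -0.30 and 0.29 in the middle 90% of pairs.

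The largest change of balance was at Lsr and Fam187b. Lsr is a lipoprotein receptor and a protein of tricellular junctions, and lies on the minus strand. The 500 bp inside Lsr held 164 ends in young and 220 in aged HSCs, and the 500 bp inside Fam187b held 2049 and 1685. The balance went from 3.64 to 2.93, so the Fam187b side stayed the more open. Exoc8, of the exocyst complex, and Sprtn, a protease for DNA-bound proteins, came next, with 414 and 351 ends inside Exoc8 and 708 and 398 inside Sprtn. At Gpc2, a glypican, and Stag3, a cohesin subunit of meiosis, ends inside Gpc2 were 351 young and 272 aged, and those inside Stag3 809 and 445. In the other direction, Ostf1 and Nmrk1 had 988 and 648 ends inside Ostf1 and 544 and 514 inside Nmrk1, a nicotinamide riboside kinase. Dnajc2 and Psmc2 and Zfp169 and A830005F24Rik also shifted to the minus gene, by -0.54 and -0.50, and Cenpj and Parp4, Asl and Crcp, Fam53a and Gm9903 and Rad54l and Pomgnt1 to the plus gene, by 0.47 to 0.49. With 1 library per age the spread between animals is unknown.

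The 10 pairs with most fragments had ratios between -0.19 and -0.013. Hjurp, the chaperone of the centromeric histone, and Trpm8, a cold-sensing channel, start 28 bp apart on chromosome 1 (88277633 and 88277661) and led with 5660 young and 4232 aged fragments. Their log2 ratio was -0.013 (-0.071 to 0.044), and after thinning each cell to 5000 fragments 42.7% of cells had a fragment there at both ages. Rnf5, a ubiquitin ligase of the endoplasmic reticulum, and Agpat1, an enzyme of phospholipid synthesis, had 4296 and 3078 fragments and a ratio of -0.075 (-0.14 to -0.0077). Ttc9c and Hnrnpul2, the latter an RNA-binding protein, had 3673 and 2427 and the lowest ratio of the 10, -0.19 (-0.27 to -0.12), next to Fiz1 and Gm44973 with -0.19 (-0.26 to -0.12). Cbx5, or HP1 alpha, and Hnrnpa1, a splicing regulator, had 3507 and 2541 with -0.058 (-0.13 to 0.015). Nfya, a subunit of the factor that binds CCAAT, and Oard1 had 3550 and 2406 with -0.15 (-0.23 to -0.080). The other 4 were Cep57 and Fam76b, Srgap2 and Fam72a, Mob3a and Izumo4 and Cryzl1 and Itsn1, with ratios from -0.068 to -0.044.

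The highest ratios were at weakly open pairs. Nphs1 encodes nephrin of the kidney filter and Kirrel2 a related adhesion protein, and the pair had 120 young and 129 aged fragments, a log2 ratio of 0.51 (0.14 to 0.88). Stap2, a signalling adaptor, and Mpnd had 267 and 285 fragments, a ratio of 0.50 (0.25 to 0.75). There, 476 of the young and 525 of the aged ends lay inside Mpnd and 13 and 8 between the TSSs shown above, so most cuts lay in the 500 bp inside Mpnd. Sox6, a transcription factor of erythroid and cartilage cells, and 1110004F10Rik had 306 and 310 fragments and 0.42 (0.19 to 0.66), and Ccnt1, a cyclin of the elongation factor P-TEFb, and 4930415O20Rik had 111 and 109 and 0.38 (-0.015 to 0.77). These 4 were the pairs past 1.3-fold, and the interval of the last includes 0. Lsr and Fam187b followed at a higher level with 1318 and 1209 fragments and 0.28 (0.17 to 0.40), seen in 12.3% of thinned young and 15.2% of thinned aged cells. Below it were Plcd3 and Acbd4, Duox2 and Duoxa2, Klc3 and Ckm, Il17rb and Chdh and S100a1 and S100a13, from 0.28 to 0.22.

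The lowest ratios included histone genes. Tssk3, a kinase of the testis, and Fam229a had 197 young and 115 aged fragments and -0.37 (-0.71 to -0.031). Zdhhc3, a palmitoyltransferase, and Exosc7, a subunit of the RNA exosome, start 10 bp apart and had 1033 and 611 fragments, with -0.35 (-0.50 to -0.21). Hist1h2ae and Hist1h2bg had 961 and 578 with -0.33 (-0.48 to -0.18), and Hist1h2bf and Hist1h2ad had 1024 and 616 with -0.33 (-0.47 to -0.18). Rhno1, a checkpoint protein, and Foxm1, a factor of the G2 and M phases, had 782 and 483 with -0.29 (-0.46 to -0.12). Tatdn3 and Nsl1, Zbtb6 and Rabgap1, Chmp1a and Spata33 and Gpc2 and Stag3 lay between -0.29 and -0.27.

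Head-to-head pairs of an H2A with an H2B gene are the usual layout of the replication-dependent H2A and H2B genes, which are expressed in S phase. Of 14 pairs with a histone gene, 11 had at least 200 fragments, with a median log2 ratio of -0.18 (-0.33 to -0.063), and 1 of 11 was above 0 (Bola1 and Hist2h2ab, 0.019). The 14 single histone promoters had a median of -0.13, and 0 were above 0. Over all pairs 10.7% were above 0, near the 1 of 11 here, and over all single promoters 34.6%. The short share at the histone pairs was 64.1% in young and 57.3% in aged HSCs. It was 60.8% and 45.8% at Hist1h2ae and Hist1h2bg, the largest difference of any pair with 1000 fragments, where short fragments numbered 584 and 265 and those of 150 to 300 bp 276 and 225. Hist1h2ah and Hist1h2bk also stood among the 5 largest decreases in this share, with 58.4% and 49.2%, beside a total ratio of -0.087 (-0.23 to 0.059). Histone genes have near-identical copies, and fragments that map to several of them may be lost or misplaced, so their levels are uncertain.

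The other groups of genes, found by their symbols, had medians near that of all pairs, of which 10.7% were above 0. Of 44 pairs with a mitochondrial gene, 4 had a ratio above 0 and the median was -0.092 (-0.12 to -0.066), beside 11 of 121 and -0.10 for single promoters of mitochondrial genes, with Mrpl41 and Pnpla7 at 3056 young and 2092 aged fragments and Uqcrq and Gdf9 at 2647 and 2033. Of 32 pairs with a gene of DNA repair or replication 3 were above 0, with a median of -0.11 (-0.13 to -0.072). Splicing and RNA processing had 5 of 37 above 0 and a median of -0.11, with Ttc9c and Hnrnpul2 and Cbx5 and Hnrnpa1 at the top. By symbol this list also takes in subunits of the RNA polymerases, which transcribe, among them Polr3g with Mblac2 (0.058), which is 1 of the 5. Ubiquitin and vesicle traffic had 1 of 17 and -0.12, and zinc finger genes 2 of 18 and -0.099. Ribosomal proteins and initiation factors had 0 of 15 and -0.098, a list that by symbol also takes in the kinase gene Rps6kb1, and aminoacyl-tRNA synthetases 0 of 5 and -0.093. Chaperones had 3 of 12 above 0 and -0.077, with Hsp90b1 and Ttc41 at 3188 and 2357 fragments, and the proteasome 0 of 7 and -0.070, beside 2 of 31 and -0.15 for its single promoters. In these groups 0 pairs were 1.3-fold higher or lower, where 0.580% of all pairs were higher and 0 lower, so nothing particular to a group is read from this. No pair held a gene of the list of blood and HSC genes, which is too short for that to say anything about them, and the 31 single promoters of the list with enough fragments had a median of -0.011.

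**Figure D4:**
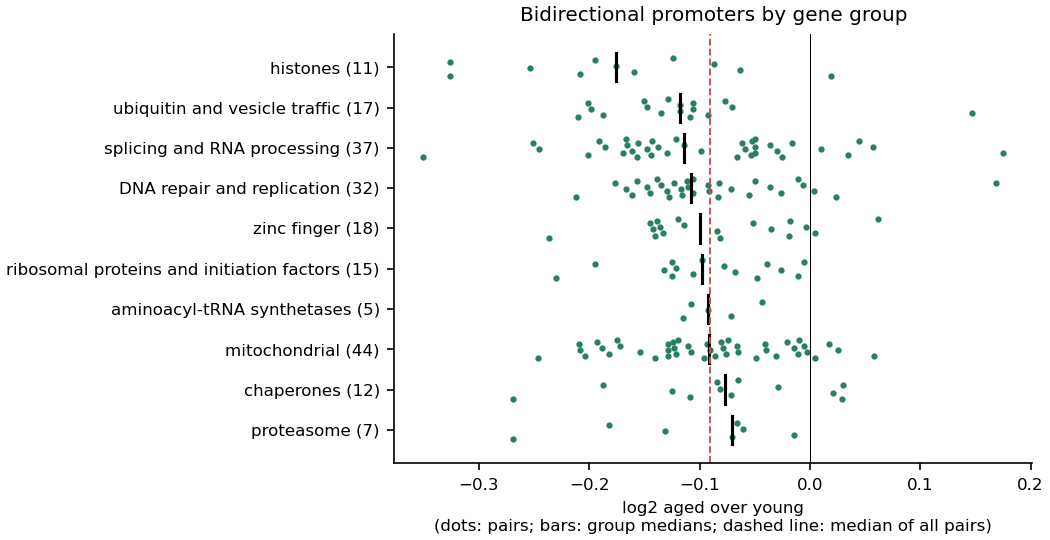
Log2 ratio of aged over young for pairs with at least 200 fragments by gene group, 1 dot per pair, with group medians (bars) and the median of all pairs (dashed, -0.091). Histone pairs lie furthest to the left, with a median of -0.18, and the other groups lie between -0.12 and -0.070.

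Of 14 well-known head-to-head pairs, 8 were members and 6 have 5′ ends that overlap in the annotation, among them the chaperonin genes Hspd1 and Hspe1. Atm, the kinase of the DNA damage response, and Npat, an activator of histone genes, had 2404 young and 1679 aged fragments and a ratio of -0.11 (-0.20 to -0.021). Brca1 and Nbr1 had 2392 and 1705 with -0.082 (-0.17 to 0.0080), Mcm4 and Prkdc 2399 and 1765 with -0.036 (-0.13 to 0.053), and Gart and Son 2650 and 1921 with -0.058 (-0.14 to 0.027). Pdcd10 and Serpini1 had -0.089 (-0.17 to -0.013) and Mrps12 and Sars2, both of mitochondrial translation, -0.11 (-0.21 to -0.0058). Wrap53 and Trp53, the gene of p53, had 787 and 591 fragments and a ratio of -0.0064 (-0.16 to 0.15), while the short share went from 68.5% to 56.5%, the second largest difference. Col4a4 and Col4a3, basement membrane collagens, had 49 young and 107 aged fragments, a ratio of 1.52 (1.03 to 2.05), but lay below the minimum of 200 fragments and enter only the counts made with no minimum.

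Genes that the study lists as higher in aged HSCs by bulk RNA-seq, made from other samples, were in 12 pairs, of which 11 had at least 200 fragments. Of these 2 had a ratio above 0, Lsr and Fam187b and Hspa1a and Hspa1l (0.021), and the median was -0.11, where 10.7% of all pairs with enough fragments were above 0. Of 194 single promoters of genes of that list 143 were above 0, with a median of 0.16, and of the 106 that were CpG-rich 73, with 0.11. Over all such promoters 34.6% of single and 27.6% of CpG-rich single ones were above 0. The CpG-rich ones were less open, at a median of 20.4 FPM per kb in the young library against 32.7 for the 11 pairs. Hist1h2ae and Hist1h2ag are on the list, and their shared promoters had ratios of -0.33 and -0.25. The others were Golgb1, Abhd17b, Rps27, Hnrnpd, Ccdc92, Numa1 and Nrg4, with -0.18 to -0.0038, and Aspa, whose promoter with Spata22 held 5 young and 14 aged fragments. Genes listed as lower were Rgl1, Fzd4 and Dhcr7, whose pairs had -0.17, -0.12 and -0.095, beside a median of -0.11 over 95 single promoters. Of the regions the study lists as differentially accessible in bulk, 0 opened regions and 1 closed region overlapped any of the 715 pairs, beside 37 and 12 of the 17774 single promoters. At such low shares nothing about the pairs is read from these counts. The closed region was at Ctns and Shpk, with 1997 and 1426 fragments and a ratio of -0.079 (-0.18 to 0.019).

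In single cells the aged library had fewer fragments in these windows and a narrower spread. With each cell thinned to 5000 fragments, which left 4658 young and 3151 aged cells and left out 229 and 254 shallower ones, a cell had a median of 106 fragments in the 715 windows in the young library (quartiles 95 and 117, and 80 to 134 for the middle 90% of cells) and 97 in aged HSCs (88 and 106, and 75 to 120). The variance over the mean was 2.55 young and 2.10 aged. Among the aged cells 74.2% held fewer fragments there than the median young cell, as did 49.0% of young cells themselves, which describes these libraries only, since cells are not replicates of an age. These values are per fragment of any place, and the share of fragments in peaks also differed between the libraries, as given above. The typical pair had a fragment in 13% of young and 12.1% of aged thinned cells.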

How the data were processed

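scATAC-seq libraries were prepared with the Chromium Next GEM Single Cell ATAC v1.1 kit. Per the study's methods, the authors aligned reads to mm10 with Cell Ranger ATAC, and their processing notes also name Signac. The deposited files hold unique fragments with their barcode and counts of fragments per barcode, with no normalization. Barcodes called as cells with 3000 to 20000 in-peak fragments were kept. Doublets were neither called nor removed beyond the upper limit of 20000. TSSs were the outermost 5′ ends of genes of GENCODE M21 on GRCm38, the build of mm10, which need not be the starts used in HSCs.

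A fragment counted once in a window if at least 1 end lay in it. Classes were under 150, 150 to 300 and over 300 bp. Values were scaled to in-peak fragments, with peaks called on cut sites of both libraries (windows of 150 bp, Poisson against the genome or 10000 bp around, q under 0.001, gaps up to 50 bp closed, width at least 100 bp). Ratios are log2 with a pseudocount of 1 fragment, for promoters with at least 200 fragments, and a 1.3-fold difference was counted. Intervals are exact: binomial order statistics for medians, binomial for shares and ratios. For ratios of fragment ends they take the ends of a fragment as independent and are too narrow. Profiles had bins of 20 bp, and maxima were read after averaging 3 bins. Groups came from the labels, and 1 library per age allowed no test. Ratios and intervals were tested on counts simulated with Poisson error only, which says nothing about spread beyond counting error. Python 3.11.15, numpy 2.4.6, scipy 1.17.1, pandas 2.3.3 and numba 0.67.0 were used.

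Pairs were named by rule: the 10 with most fragments, the 10 highest and 10 lowest ratios, the 5 largest changes of balance and of short share in either direction, a list of well-known pairs, pairs with genes or regions of the study's lists, and examples of gene groups with most fragments. A few pairs named by this rule are not reported here. Members and lists were chosen with earlier results of these data known. Alternatives to cells, counting, scaling, windows, minimum and classes were computed, 22 planned and 1 added.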

Additional observations from a re-analysis of the deposited data

Results flagged for a closer look

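Signal was also present in data that the comparisons did not use. The X chromosome held 19 further head-to-head pairs, with 14329 fragments from young and 10084 from aged HSCs. Their median level was 22.8 FPM per kb young and 22.6 aged, and the 15 pairs with at least 200 fragments had a median log2 ratio of -0.12, with 2 above 0. Of the autosomal pairs 10.7% were above 0, and of all autosomal promoters 32.3%. There were also 123 young and 131 aged barcodes that had 3000 to 20000 in-peak fragments but no cell call. They held 13054 and 14361 fragments in the windows of the autosomal pairs. Per 10000 in-peak fragments these barcodes had 310.4 and 275.6 fragments at the pairs, and 69.6% and 66.9% of them were under 150 bp. Their fragments lay in peaks less often than those of cells, at 51.9% and 35.4%.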

How the results depend on the processing

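In 18 other settings the median log2 ratio of the pairs stayed below 0 (-0.12 to -0.039), and its difference from all single promoters, -0.029 as reported (their median being -0.062), was -0.059 to -0.0041 in 21 settings, though a change of scaling alone cannot move it. With at least 1000 fragments that difference lay within -0.015 to 0.0054, the outer limits from the intervals of both medians, which include 0, and in the highest level class the pairs lay above CpG-rich single promoters (-0.087 against -0.11). Of 205 values under 22 other settings and 1 chosen after seeing the data (pairs sharing a gene with a closer pair counted too), 134 stayed within the interval of the reported value (for counts of pairs, within 1.5 times the reported count), 70 moved beyond it and 1, for longer fragments, turned from above 0 to below. The median for 1-nucleosome fragments, whose interval includes 0, was below 0 in 6 of 18 settings. As reported, the short share of single promoters differed by -3.35 points, and levels of pairs were 4.78 times those of single promoters young and 3.99 times aged. Thinning each cell to 5000 fragments gave -0.072 for single promoters, 1 pair at least 1.3-fold higher and 7 lower, -3.2 points in the short share of single promoters and -0.013 for 1-nucleosome fragments at pairs. Counting by midpoint gave -0.099 and -0.072 for pairs and single promoters, 1 pair lower, -2.44 and -2.98 points, and -0.010 for 1-nucleosome fragments. Counting every end gave -0.10 and -0.067, 1 pair lower, -2.40 and -2.96 points, and 0.13 for longer fragments. Scaling to all autosomal fragments gave -0.12 and -0.094, 2 pairs lower, and -0.19, -0.026 and 0.12 for short, 1-nucleosome and longer fragments. A TMM factor over promoters gave -0.039 and -0.010, and -0.10, 0.057 and 0.21 by length. Scaling within each length class gave -0.066, -0.13 and, with the sign turned, -0.18. Taking off the density of the flanks gave 9 pairs higher and 2 lower, and levels of pairs 5.78 times those of single promoters young and 4.82 aged. Windows of 250 bp gave -0.11 and -0.078, 1 pair lower, level ratios of 5.72 and 4.85, -2.35 and -2.91 points, and -0.019 for 1-nucleosome fragments. Windows of 1000 bp gave -0.082 and -0.046, level ratios of 3.7 and 3.2, -2.99 and -3.77 points, and 0.019. With no minimum, single promoters had -0.032, the difference of medians was -0.059, and 12 pairs were higher and 6 lower. With at least 1000 fragments these were -0.089, -0.0041 and 0 higher. Gaps up to 500 bp gave 2 pairs higher, adding pairs with overlapping heads gave 10 higher and 1 lower, and leaving out provisional names gave 2 higher and level ratios of 3.86 and 3.31. Single promoters with no gene start within 5 kb had -0.057, with level ratios of 5.96 and 4.99, and CpG-rich ones -0.077, a difference of -0.014 and level ratios of 1.27 and 1.25. With short fragments taken as under 100 bp, the short share of single promoters differed by -3.07 points. Where not set by construction, the cause was not tested. No paired analysis was possible because each age has 1 library and no replicate number in the labels.

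With 1 library per age, differences between animals, sorts and library preparations cannot be told apart from age. Intervals cover counting error or the spread over promoters only. The 4 pairs at least 1.3-fold higher were all in the lowest level class, and with at least 1000 fragments there were 0. They were 2.31% of the pairs of that class, where 8.76% of CpG-rich and 12.7% of CpG-poor single promoters were higher. Annotated gene starts may not be those used in HSCs, and ATAC-seq does not tell which of the divergent genes is transcribed.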
